A study of Mus musculus with 4 samples.

Results

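The 36 genes described here drive or carry out the cell division cycle: 10 act in DNA replication, 9 are cyclins and cyclin-dependent kinases (CDKs) of the G1 and S phases, and 17 act in mitosis. They were taken by gene symbol from a fixed list of cell cycle genes, with no value of these libraries in the rule. The list was, however, chosen with earlier results of these data known. All 36 were among the 32681 genes of the deposited table, and all 36 passed the filter on low reads that left 18110 genes for testing. RNA sequencing was done on 4 primary neuron cultures prepared from the neocortex of wild-type CD-1 mouse embryos at embryonic day 13. Control shRNA was transfected into 2 cultures and DcpS shRNA into the other 2. A short hairpin RNA (shRNA) is designed to lower the mRNA it matches, and DcpS is the enzyme that breaks down the cap left over from mRNA decay. The titles mark the DcpS hairpin with a single number, so these values describe 1 hairpin. The sources used here do not give the share of cells transfected, the days in culture or the litter of each culture. The p-values therefore rest on the spread among these 4 samples, which may be technical, and on a spread pooled over all genes.

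In a dividing cell, D-type cyclins with CDK4 or CDK6 and E-type cyclins with CDK2 release E2F transcription factors, which switch on the genes of DNA synthesis. The MCM helicase then opens DNA at origins, and cyclin B with CDK1 later starts mitosis, in which the spindle checkpoint holds back chromosome separation until every kinetochore is attached. In the embryonic cortex, radial glia and intermediate progenitors run through this cycle, while the neurons they produce leave it for good. Dividing progenitors and other dividing cells are thus the usual source of this RNA in a neuron culture. In such bulk RNA, fewer cells of a type and less RNA per cell cannot be told apart.

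The promoters of the members were read for words known from cell cycle genes. RefSeq promoters (GRCm38.p6, 250 bases before to 50 after the start) matched 29 of the 36 genes. Those without a match were Mcm4, Ccnd1, Ccnd2, Ccne2, Ccna2, Aurkb and Tpx2. The matched promoters were the ones read here. These promoters were searched on both strands for the E2F words TTTCCCGC, TTTCGCGC, TTTGCCGC and TTTGGCGC, for TTTGAA, the core of the cell cycle genes homology region (CHR), and for CCAAT, the NF-Y box. Among the replication genes, 4 of 9 held an E2F word (Mcm3, Mcm5, Mcm6 and Mcm7), against 1 of 15 mitosis genes (Cdk1), 2.26% of all promoters and 4.57% of the tested genes that matched. Among the mitosis genes, 10 of 15 held TTTGAA, against 1 of 9 replication genes (Mcm2), 17.9% of all promoters and 14.6% of the tested genes. All 10 of those mitosis genes also held CCAAT, a pair of words found together in 6.95% of all promoters. CCAAT itself was about as frequent in both roles, in 8 of 9 replication genes and 13 of 15 mitosis genes, against 2 of 5 cyclins and CDKs and 37.4% of all promoters. Of the 5 cyclin and CDK genes that matched, Cdk2 held an E2F word and 0 held TTTGAA. These matches are a description of the sequence, and differences between the roles were not tested.

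The E2F words are shown for the replication genes on which the results turn and for Cdk2, and the TTTGAA word for 6 mitosis genes, as 30-base windows read 5′ to 3′ on the gene's strand with the word in capitals. In Mcm3 (chr1:20820275-20820304, minus strand) the word lies 19 bases downstream of the start. In Mcm6 (chr1:128359797-128359826, minus strand) it lies 110 bases upstream and overlaps a second E2F word on the opposite strand. Those of Mcm7 (chr5:138171849-138171878, minus strand) and Cdk2 (chr10:128705173-128705202, minus strand) lie 16 bases downstream and 140 bases upstream. The TTTGAA words lie 4 bases downstream of the start in Ccnb2 (chr9:70421533-70421562, minus strand) and 18 bases upstream in Cdc20 (chr4:118437344-118437373, minus strand). They lie 15 bases upstream in Cdk1 (chr10:69352910-69352939, minus strand) and 30 bases downstream in Plk1 (chr7:122159453-122159482, plus strand). In Mki67 (chr7:135716460-135716489, minus strand) the word lies 98 bases upstream, and in Ttk (chr9:83834684-83834713, plus strand) its complement lies 7 bases downstream.
Mcm3: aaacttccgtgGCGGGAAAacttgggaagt
Mcm6: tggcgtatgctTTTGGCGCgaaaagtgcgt
Mcm7: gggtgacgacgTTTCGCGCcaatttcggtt
Cdk2: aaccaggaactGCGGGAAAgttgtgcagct
Ccnb2: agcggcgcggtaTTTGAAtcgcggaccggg
Cdc20: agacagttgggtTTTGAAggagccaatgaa
Cdk1: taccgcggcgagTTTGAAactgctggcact
Plk1: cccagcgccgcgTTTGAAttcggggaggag
Mki67: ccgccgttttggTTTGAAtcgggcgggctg
Ttk: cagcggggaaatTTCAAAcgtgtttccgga
Mcm3 and Mcm7 hold 1 more E2F word each outside the window shown, and Mcm6 a further one nearer its start. Ccnb2, Cdk1 and Mki67 each hold a further TTTGAA word, 167, 71 and 116 bases upstream of the start. In Mcm3 and Cdk2 the capitals are the complement of the word TTTCCCGC, which lies on the opposite strand.

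The 4 libraries held 17754768 to 21793685 reads, and within each group the libraries varied beyond sampling noise. The targeted gene, Dcps, had a normalised read count (reads divided by a library size factor) of 499.8 and 507 in controls 1 and 2 against 114 and 119.6 in DcpS shRNA 1 and 2, which left 23.3% of the control level. Neuron markers were abundant: the 8 tested summed to 1022 to 1094 RPKM (reads scaled for exon length and library size) in the 4 libraries. These sums were 1094 and 1078 RPKM in controls 1 and 2 and 1022 and 1058 RPKM in DcpS shRNA 1 and 2, with both DcpS shRNA libraries below the controls. Of the 8, Snap25 and Syt1 fell and Rbfox3 rose (limma), and 4 were lower and 1 higher at an unadjusted p under 0.05. Markers of dividing precursors were also plain, at 489.8 to 529.7 RPKM for 8 radial glia genes and 123 to 139.9 RPKM for 6 intermediate progenitor genes. Single genes weigh heavily on such sums. The highest neuron gene had a mean of 530 RPKM over the 4 libraries, and the highest radial glia gene 307 RPKM.

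Per exon length, Cdk4, the kinase partner of D-type cyclins, stood highest among the 36, with a mean of 129 RPKM over the 4 libraries. Pcna, the sliding clamp that holds DNA polymerase on its template, followed at 96.6 RPKM. The next were Mcm7, a helicase subunit (55.0 RPKM), Rrm2, the small subunit of ribonucleotide reductase (53.0 RPKM), and Top2a, the topoisomerase that untangles replicated chromosomes (51.6 RPKM). Among D-type cyclins, Ccnd2 was at 47.8 RPKM, while Ccnd1 (3.83 RPKM) and Ccnd3 (3.30 RPKM) were the lowest of the cyclin group with Cdk6 (3.65 RPKM). The proliferation antigen Mki67 was at 37.1 RPKM, and the spindle checkpoint kinase Ttk was the lowest mitosis gene at 5.53 RPKM. Neighbours in this order often overlapped between libraries, as did Mcm7 with Rrm2, each step of the run Mcm3, Mcm6, Mcm4 and Mcm5, Mki67 with Cdc20, and Ccnd1 with Cdk6. No library was at 0 for any of the genes: the lowest normalised read count was 315 (Ccnd1, DcpS shRNA 2) and the highest 9577 (Top2a, DcpS shRNA 1).

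**Figure D1:**
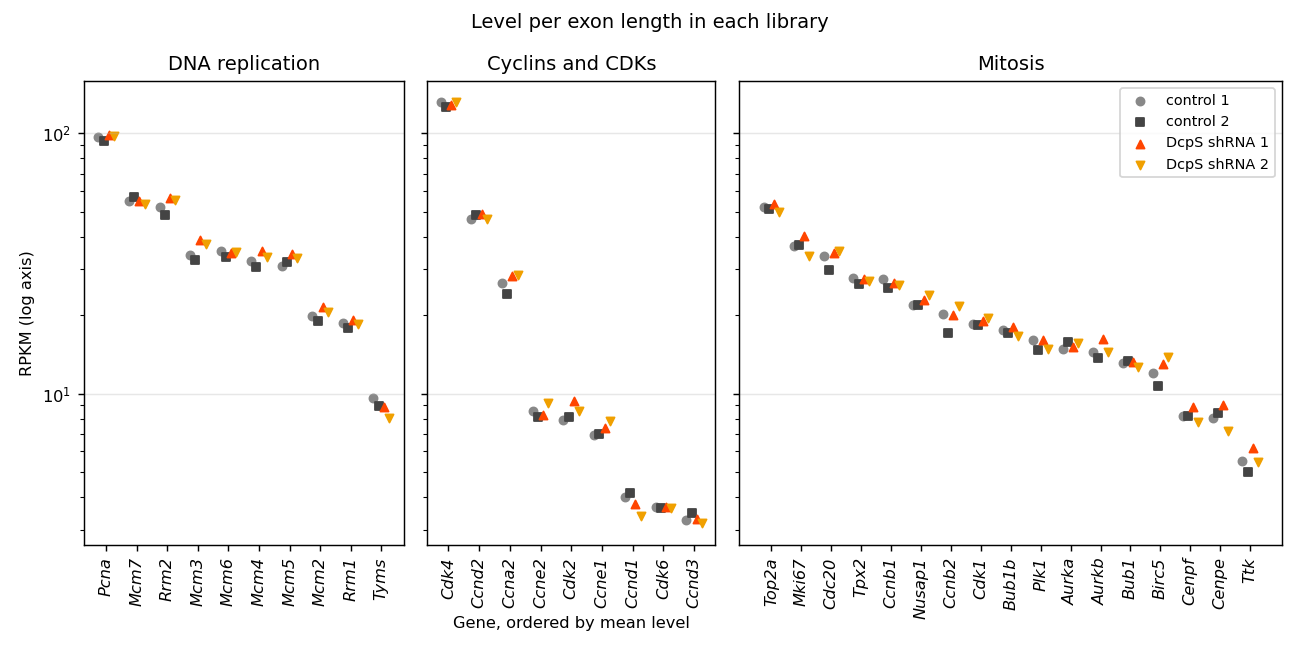
Level of each gene in RPKM (log axis) in the 4 libraries, 1 marker per library, grouped by role and ordered by mean level. Cdk4 and Pcna stand at 129 and 96.6 RPKM, and the lowest genes, Ccnd3 and Cdk6, at 3.30 and 3.65 RPKM, while the 4 libraries of neighbouring genes often overlap.

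The study set DcpS shRNA beside control shRNA to look for genes downstream of DcpS. Of the 36 genes, 1 passed the test, Mcm3, a subunit of the MCM helicase, which rose by a small amount, and 35 did not (limma, Benjamini-Hochberg adjusted p under 0.05 over 18110 genes). Of all tested genes 5.79% were called, 2.14% higher and 3.65% lower, so 1 of 36 is not above the background. The fold changes were narrow: the 36 ran from −0.19 (Ccnd1) to 0.24 (Birc5) on the log2 scale. No 95% interval reached below −23.8% (Ccnd1) or above 31.7% (Birc5) of change from control. These bounds rest on limma's spread pooled over all genes.

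The MCM2 to MCM7 proteins form the ring that unwinds DNA at replication origins. Mcm3 (chromosome 1, 20802968 to 20820312, minus strand, GRCm38) had normalised read counts of 2533 and 2424 in controls 1 and 2 against 2896 and 2792 in DcpS shRNA 1 and 2. Both DcpS shRNA libraries lay above both controls (log2 fold change 0.20, SE 0.05, 95% interval 0.08 to 0.31, limma adjusted p 0.0388), a rise of 14.7%. The call ended without control 1 (limma, adjusted p 0.117), control 2 (0.364) or DcpS shRNA 1 (0.0533) and with DESeq2 (0.137), and the adjusted p ran from 0.0114 to 0.364 over the alternatives.

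The other helicase subunits did not pass. Mcm4 was at 2294 and 2168 in controls 1 and 2 against 2519 and 2389 in DcpS shRNA 1 and 2 (log2 fold change 0.14, SE 0.06), without overlap. Mcm2 was at 2729.8 and 2609 in controls 1 and 2 against 2961 and 2839.6 in DcpS shRNA 1 and 2 (log2 fold change 0.12, SE 0.05), again with the DcpS shRNA libraries above the controls. Those 2 genes had unadjusted p-values of 0.0251 and 0.0403 and adjusted p-values of 0.188 and 0.242 (limma). Mcm5 was at 2448 and 2535 in controls 1 and 2 against 2714 and 2633 in DcpS shRNA 1 and 2, also without overlap (log2 fold change 0.10, SE 0.05). For Mcm6 the values were 3255 and 3089.9 in controls 1 and 2 against 3214 and 3245 in DcpS shRNA 1 and 2, and the groups overlapped (log2 fold change 0.03, SE 0.05). Mcm7 was the one subunit with both DcpS shRNA libraries below the controls, at 4824 and 4968 in controls 1 and 2 against 4794 and 4710.2 in DcpS shRNA 1 and 2 (log2 fold change −0.04, SE 0.05). Its 95% interval of −0.15 to 0.06 included 0. The fold changes of the 6 subunits ran from −0.04 to 0.20. Mcm7 (in 1 of its 2 promoters) and Mcm3 at the ends of that range hold an E2F word in the promoter, as do Mcm5 and Mcm6 between them. Mcm2 holds 0 E2F words, and Mcm4 had no matching promoter to search. A relation between the word and the fold change was not tested.

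Rrm2 and Rrm1 encode the 2 kinds of subunit of ribonucleotide reductase, which makes the building blocks of DNA. Rrm2, the subunit whose level is known to follow S phase, was at 2855 and 2652 in controls 1 and 2 against 3092 and 3047 in DcpS shRNA 1 and 2. Both DcpS shRNA libraries exceeded the controls (log2 fold change 0.16, SE 0.05, unadjusted p 0.0107, limma adjusted p 0.115). Rrm1 was at 4068 and 3912 in controls 1 and 2 against 4187 and 4039.7 in DcpS shRNA 1 and 2, with overlap (log2 fold change 0.04, SE 0.05). Pcna was at 4604 and 4455 in controls 1 and 2 against 4674 and 4639 in DcpS shRNA 1 and 2 (log2 fold change 0.04, SE 0.05), a difference of 2.82% with the groups just apart. Tyms, the enzyme that makes thymidylate, was the lowest of the 10 in fold change, at 1161 and 1077 in controls 1 and 2 against 1071 and 976 in DcpS shRNA 1 and 2 (log2 fold change −0.13, SE 0.07, limma adjusted p 0.322). It is the single member whose annotated 3′ UTR holds either of the 7-base words ACGTGCA and CACGTGC that Dcps mRNA also carries, against 9.43% of the 13801 tested genes scanned. These words were chosen with earlier results of these data known, the hairpin's own sequence is not used here, and the part of the word in the value of Tyms was not tested.

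Cyclins and CDKs of G1 and S phase gave 0 calls among 9 genes (limma, with 2 at an unadjusted p under 0.05, edgeR 0, DESeq2 0). Ccna2, the cyclin of S phase and early mitosis, was at 2162 and 1952 in controls 1 and 2 against 2283 and 2309 in DcpS shRNA 1 and 2, with the groups apart (log2 fold change 0.16, SE 0.06, unadjusted p 0.0145, limma adjusted p 0.138). Its kinase partner Cdk2 was at 975 and 1003 in controls 1 and 2 against 1149 and 1061 in DcpS shRNA 1 and 2, also apart (log2 fold change 0.16, SE 0.06, unadjusted p 0.0239, limma adjusted p 0.182). The E-type cyclins Ccne1 and Ccne2, which activate CDK2 at the entry to S phase, had fold changes of 0.13 (SE 0.09) and 0.06 (SE 0.08).

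The D-type cyclins, which tie the cycle to growth signals, did not share a sign in fitted value, and 0 of the 3 passed. Ccnd1 was at 374 and 388 in controls 1 and 2 against 352 and 315 in DcpS shRNA 1 and 2, with both DcpS shRNA libraries below the controls (log2 fold change −0.19, SE 0.09, 95% interval −0.39 to 0.0043, limma adjusted p 0.28). Ccnd2, the main D-type cyclin here, was at 8733 and 9035 in controls 1 and 2 against 9090.2 and 8768 in DcpS shRNA 1 and 2. Its groups overlapped, and its 95% interval of −0.10 to 0.11 held the difference within −6.65% and 8.21%. Ccnd3 had a fold change of −0.05 (SE 0.08). Their kinases had fitted values close to 0: Cdk4 was at 8487 and 8115 in controls 1 and 2 against 8277 and 8474 in DcpS shRNA 1 and 2 (log2 fold change 0.01, SE 0.05), and Cdk6 had a fold change of −0.01 (SE 0.06). Exons of opposite-strand genes cover 23.4% of the exon bases of Ccnd1, 19.7% of Cdk4, 17.4% of Ccne2 and 12.5% of Ccna2. They cover 8.70% of Mcm7, 7.86% of Ccnd2 and 7.09% of Plk1, and at most 4.24% of Nusap1, Ccnd3, Cdc20, Cdk6 and Cdk2. The use of strand in counting is not stated, so these levels are uncertain, most of all those of the first 4 genes.

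Mitosis genes gave 0 calls among 17 (limma, with 2 at an unadjusted p under 0.05, edgeR 0, DESeq2 0). Birc5, which encodes survivin, a part of the chromosomal passenger complex, had the largest fold change of the 36. Its level was 806 and 719 in controls 1 and 2 against 874 and 929.8 in DcpS shRNA 1 and 2, without overlap (log2 fold change 0.24, SE 0.07, unadjusted p 0.00376, limma adjusted p 0.0594). It passed without control 1 (limma, adjusted p 0.0265) and without DcpS shRNA 1 (0.0272), while without control 2 the adjusted p was 0.457 and without DcpS shRNA 2 it was 0.189. Aurkb, the kinase of the same complex, had a fold change of 0.12 (SE 0.07), with the groups apart.

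Cdc20, the activator of the anaphase-promoting complex, was at 1249 and 1104 in controls 1 and 2 against 1287 and 1306 in DcpS shRNA 1 and 2 (log2 fold change 0.14, SE 0.07, unadjusted p 0.0448, limma adjusted p 0.256). Its DcpS shRNA libraries lay just above the controls, and the controls differed more from each other than the nearest pair across groups. Cdk1, the kinase that starts mitosis, was at 1810.1 and 1784 in controls 1 and 2 against 1857 and 1911 in DcpS shRNA 1 and 2, apart by a small step (log2 fold change 0.07, SE 0.05). Its B-type cyclins had different fitted values, and neither passed: Ccnb2 was at 614 and 519.9 in controls 1 and 2 against 609 and 662 in DcpS shRNA 1 and 2 (log2 fold change 0.17, SE 0.09) and Ccnb1 had a fold change of −0.01 (SE 0.06), both with overlap. Named pseudogene copies of Ccnb1, Ccnb2, Pcna, Tyms and Ccnd3 are in the table, and how reads that fit both were counted is not stated.

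Mki67, the antigen detected by Ki-67 staining, and Top2a had fitted values near 0. Mki67 was at 7365 and 7434 in controls 1 and 2 against 8056 and 6753 in DcpS shRNA 1 and 2 (log2 fold change −0.0046, SE 0.07, 95% interval −0.15 to 0.14). Its DcpS shRNA libraries lay on either side of both controls. Top2a was at 9291 and 9129 in controls 1 and 2 against 9577 and 8896 in DcpS shRNA 1 and 2 (log2 fold change 0.0033, SE 0.05), also on either side, with a 95% interval of −7.19% to 8.23% of change. The spindle assembly factor Tpx2 was at 2576 and 2445 in controls 1 and 2 against 2557 and 2509 in DcpS shRNA 1 and 2 (log2 fold change 0.01, SE 0.05), with overlap. Mitotic kinases Plk1 (0.01, SE 0.08) and Aurka (0.01, SE 0.07) and the checkpoint genes Bub1 (−0.03, SE 0.06) and Bub1b (0.00013, SE 0.06) lay within their SE of 0, and Ttk was at 0.15 (SE 0.08). Nusap1, which bundles spindle microtubules, had a fold change of 0.09 (SE 0.06), and the kinetochore genes Cenpe and Cenpf had −0.04 (SE 0.09) and 0.02 (SE 0.06). Of the 10 mitosis genes with the TTTGAA word, fitted values ran from −0.0046 (Mki67) to 0.17 (Ccnb2).

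**Figure D2:**
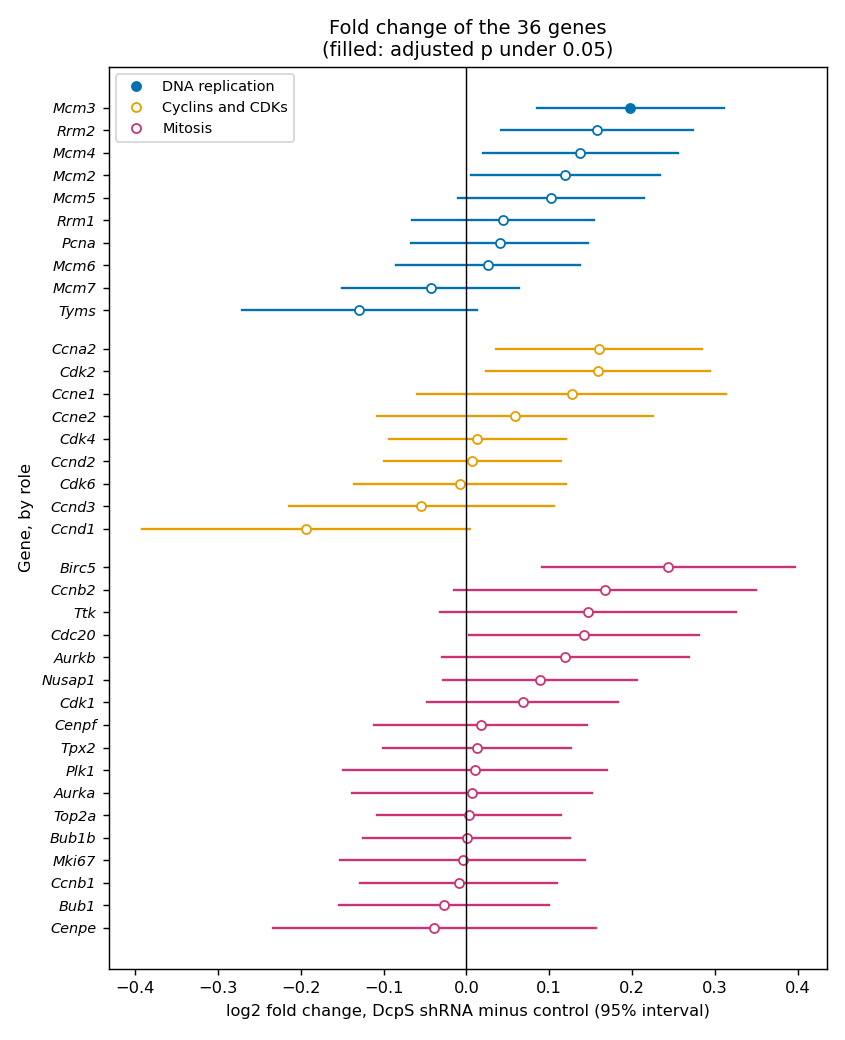
Log2 fold change of each gene, DcpS shRNA minus control, with its 95% interval from limma (n = 2 per group), grouped by role; filled points passed the adjusted test. Mcm3 at 0.20 is the single filled point, Birc5 at 0.24 lies farthest right and Ccnd1 at −0.19 farthest left.

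Small differences leaned upward in the fitted values. An unadjusted p under 0.05 was reached by 8 of the 36 genes in the higher direction, Mcm3, Birc5, Rrm2, Ccna2, Cdk2, Mcm4, Mcm2 and Cdc20, and by 0 in the lower direction, against 8.75% and 9.92% of all tested genes. The 8 are 22.2% of the 36, and among tested genes in the same range of reads that share was 12.7%. Both DcpS shRNA libraries lay above both controls for 14 genes (38.9%) and below them for 3 (8.33%: Mcm7, Tyms and Ccnd1), and 19 overlapped. The background for such separation was 24.4% higher and 24.0% lower over all tested genes, and 29.7% and 23.9% over those in the same range of reads. The genes share the same 4 libraries and, as background, the same dividing cells, so they are not independent of each other, and no test of the list was made. edgeR called 1 of the 36 (Mcm3, adjusted p 0.0438) and DESeq2 called 0 (3 at an unadjusted p under 0.05), where they called 5.77% and 2.5% of all tested genes.

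By role, the median log2 fold change was 0.07 for replication, 0.01 for cyclins and CDKs and 0.01 for mitosis, where that of all tested genes was 0.00074. Libraries left out one at a time moved the replication median between 0.05 (without control 2) and 0.10 (without DcpS shRNA 2). The mitosis median ran from −0.00043 (without DcpS shRNA 1) to 0.07 (without DcpS shRNA 2), a range wider than its value. The fitted values lay above 0 for 22 of the 36 without control 2 and 21 without DcpS shRNA 1, against 27 (75%) with all libraries. With all libraries, that share was 50.2% over all tested genes and 53.7% over those in the same range of reads. The share over all tested genes is given here for the fit with all libraries only.

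**Figure D3:**
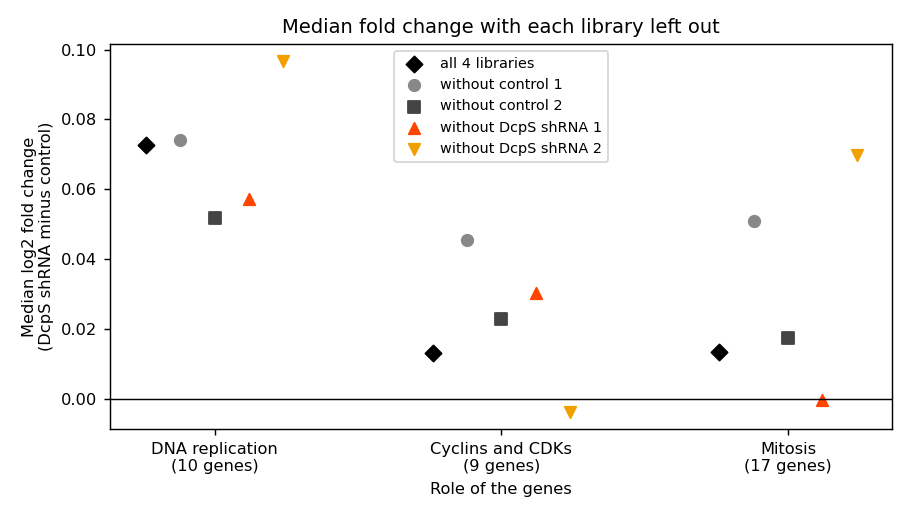
Median log2 fold change (DcpS shRNA minus control) of the genes of each role with all 4 libraries and with each library left out. The replication medians stay above 0 in the 5 fits, and those of the other 2 roles reach 0 or below in 1 fit each.

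Differences between the libraries of a group went in part with gene length. Between DcpS shRNA 1 and 2, the long genes Cenpe, Mki67 and Cenpf were higher in library 1 by 0.33, 0.25 and 0.18 on the log2 scale. The short gene Ccnb2 differed by −0.12 and Birc5 by −0.09, the other way. Other genes did not follow length: the long genes Cdk6, Rrm1 and Ccnd2 differed by 0.003, 0.05 and 0.05, and the shorter Aurkb by 0.16. Over the 36 genes this difference had a correlation with log2 exon length of 0.51 (Pearson) and 0.51 (Spearman). Between control 1 and 2 the correlations were −0.47 and −0.42, with Ccnb2 (0.24) and Cdc20 (0.18) highest in control 1. These are correlations across genes that share the same libraries, and genes are not independent replicates. Over 17741 tested genes with a known exon length they were 0.08 (Pearson) and 0.17 (Spearman) for DcpS shRNA 1 and 2, and −0.07 and −0.10 for the controls.

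The fold change between groups also went with length among the 36 (−0.39 Pearson, −0.44 Spearman). The 8 genes with at least 8000 exon bases had a median of −0.00066 and the 28 shorter ones 0.08. Over all tested genes with a known length the same correlations were −0.05 and −0.09, and the medians −0.03 for the long and 0.01 for the shorter genes. With the length trend of each library removed, an alternative chosen after the data were seen, Mcm3 (0.21, limma adjusted p 0.0149) and Birc5 (0.25, 0.0303) passed, 2 of the 36. The mitochondrial share of reads was 2.56% and 2.58% in the controls, 2.44% in DcpS shRNA 1 and 2.71% in DcpS shRNA 2. No direct measure of RNA quality is used here, and the part of RNA quality or of this share in the length trend was not tested.

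**Figure D4:**
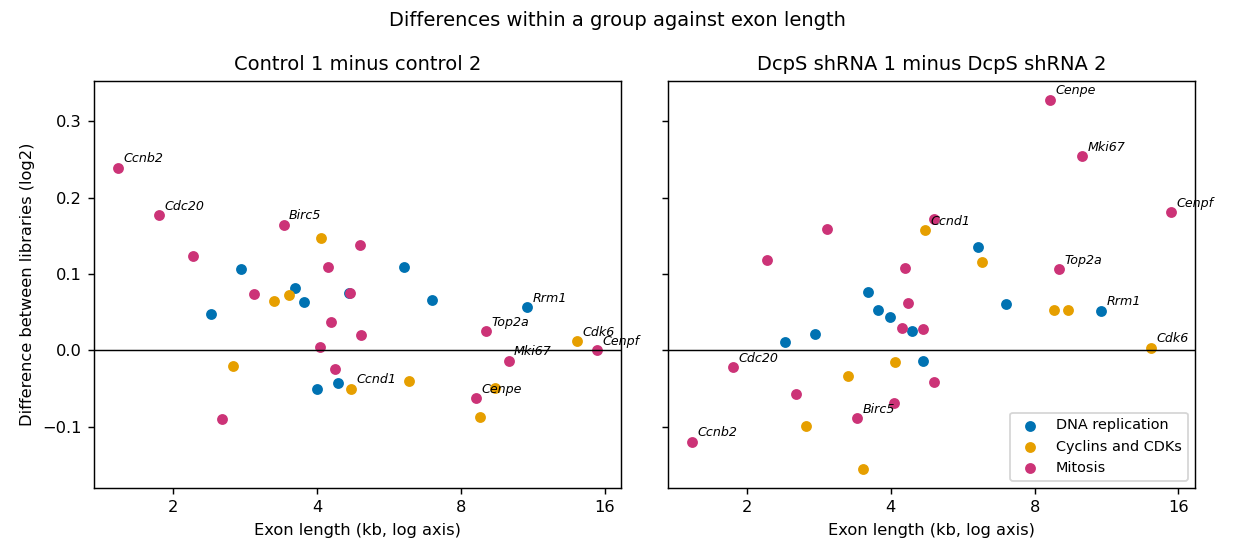
Difference between the libraries of a group (log2) for each of the 36 genes against exon length (kb, log axis), controls on the left and DcpS shRNA on the right, 1 point per gene. The long mitosis gene Cenpe (0.33) is high in DcpS shRNA 1 while the longer Cdk6 (0.003) is not, and the shortest, Ccnb2, is high in control 1 (0.24).

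Wider lists of the same pathway, 148 genes in 9 lists, gave 3 higher and 5 lower calls (limma, Benjamini-Hochberg), near the background of 2.14% and 3.65%, with a median of 0.04. Among cell cycle brakes, 12 CDK inhibitors, pocket proteins and CDK1-inhibiting kinases, 1 was higher and 2 were lower. Rbl2, the p130 pocket protein that holds E2F targets silent in resting cells, fell from a normalised read count of 498 and 547 to 388 and 335 (log2 fold change −0.53, SE 0.09, adjusted p 0.00224 by limma). Cdkn2b, the CDK4 and CDK6 inhibitor p15, was low in reads and fell from 35.2 and 45.1 to 12.7 and 15.6 (log2 fold change −1.43, SE 0.30, limma adjusted p 0.0078). It no longer passed once control 2 was left out (limma, adjusted p 0.0983). Pkmyt1, a kinase that holds CDK1 inactive, was higher (log2 fold change 0.36, SE 0.09, limma adjusted p 0.0347).

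Btg2, an antiproliferative gene of progenitors about to make neurons, rose from 977 and 1012 to 1324 and 1302 (log2 fold change 0.40, SE 0.06, limma adjusted p 0.000567). It was the 1 call among 5 genes of the BTG and TOB family, in which Tob2 was at −0.35 (SE 0.10, limma adjusted p 0.0526) without passing. Tob2 did pass, as a lower gene, with edgeR (adjusted p 0.044), with no expression filter (limma, 0.034), without control 2 (0.0148) and without DcpS shRNA 2 (0.0484). The calls of Btg2, Rbl2 and Rfc1 held in each of the 13 planned and 2 added alternatives, those with 1 library left out among them.

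Origin licensing and firing genes, 18 in number, gave 1 higher call, Gins3, a part of the GINS complex that activates the MCM helicase (log2 fold change 0.39, SE 0.10, limma adjusted p 0.0376). Orc1, the origin recognition subunit, had the lowest fold change of that list (−0.26, SE 0.15). Of 30 genes of the replication fork and nucleotide supply, 2 were lower: Rfc1, the large subunit of the clamp loader that places PCNA on DNA (log2 fold change −0.30, SE 0.06, limma adjusted p 0.00431), and Dnmt1, the maintenance DNA methyltransferase (log2 fold change −0.26, SE 0.05, limma adjusted p 0.00567). The polymerase subunit Pole2 was highest there at 0.26 (SE 0.11), without passing. Among 16 E2F and DREAM complex genes, E2f7, a repressor among the E2Fs, was lower (log2 fold change −0.31, SE 0.08, limma adjusted p 0.0394), and E2f2 was at 0.33 (SE 0.10, limma adjusted p 0.0544).

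Kinetochore, spindle and cytokinesis genes gave 0 calls among 36 (limma, with 5 higher and 0 lower at an unadjusted p under 0.05), from −0.15 (Anln) to 0.22 (Kif18a). Condensin and cohesin genes gave 0 of 12 (0 higher and 1 lower unadjusted), from −0.12 (Stag2) to 0.12 (Ncaph). CDK activators gave 0 of 10 (2 higher and 0 lower unadjusted), from −0.04 (Cdk7) to 0.19 (Ccnf). DNA damage checkpoint genes gave 0 of 9 tested (0 unadjusted in either direction), from −0.21 (Atm) to 0.11 (Brca2). Among these, Atm passed without DcpS shRNA 1 (−0.47, limma adjusted p 6.35e-05) and Kif18a without DcpS shRNA 2 (0.33, 0.0299). With the length trend removed, Kif18a (0.0363), Ccnf (0.0383) and E2f2 (0.0271) passed as higher (limma, adjusted p). The calls of Gins3, Pkmyt1 and E2f7 ended with DESeq2 (adjusted p 0.278, 0.244 and 0.204). Left-out libraries also ended them (limma): Gins3 without any 1 of the 4 (adjusted p 0.0521 to 0.132), Pkmyt1 without control 1, control 2 or DcpS shRNA 1 (0.071 to 0.177), and E2f7 without control 1 (0.312) or DcpS shRNA 1 (0.136). That of Dnmt1 ended without control 1 (limma, adjusted p 0.0593) or control 2 (0.0812).

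Markers of progenitors overlapped between the groups in summed level but not in a mean that gave each gene equal weight. Fibroblast markers overlapped in neither. Radial glia markers summed to 529.7 and 489.8 RPKM in the controls and 517 and 529 RPKM with DcpS shRNA, and intermediate progenitor markers to 139 and 123 RPKM against 139.9 and 131 RPKM. In both lists control 2 was the lowest library, as it was for the summed level of the 10 replication genes (373 RPKM), the 9 cyclins and CDKs (233 RPKM) and the 17 mitosis genes (335 RPKM). Control 1 held 384, 239.6 and 348 RPKM. DcpS shRNA 1 and 2 held 402 and 393, 241 and 243, and 361 and 346 RPKM. Both thus exceeded both controls for replication and for cyclins and CDKs, but not for mitosis. Cdk4 alone gave 132 and 126 RPKM of the cyclin and CDK sums in controls 1 and 2. With equal weight per gene, cyclins and CDKs stood at 0.0026 and −0.0026 in the controls against 0.034 and 0.026. Replication stood at 0.03 and −0.03 against 0.09 and 0.04, and mitosis at 0.03 and −0.03 against 0.09 and 0.02. Of 8 radial glia genes 1 was called, Nes (higher), and of 6 intermediate progenitor genes 1, Neurod4 (higher). In the equal-weight mean of log2 differences from the control average, radial glia genes stood at 0.06 and −0.06 in controls 1 and 2. In DcpS shRNA 1 and 2 they stood at 0.11 and 0.08. Intermediate progenitor genes stood at 0.12 and −0.12 in the controls against 0.31 and 0.17 with DcpS shRNA. Fitted values exceeded 0 for 7 of the 8 (median 0.12) and 5 of the 6 (median 0.13). At an unadjusted p under 0.05 (limma), 2 of the 8 rose and 1 fell, and 3 of the 6 rose and 0 fell. Fibroblast markers, from other cells that divide in culture, fell in 7 of 7 genes (limma), with sums of 67.7 and 73.5 RPKM in the controls and 41.8 and 40.8 RPKM with DcpS shRNA.

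Other dividing or supporting cells were rare in the RNA. Astrocyte markers summed to 8.19 to 12.7 RPKM, with 3 of 5 tested genes lower. Oligodendrocyte precursor markers summed to 1.77 to 2.82 RPKM with 1 of 4 tested genes lower and Sox10 at 0 in both controls. The lower gene was Pdgfra, which is also on the fibroblast list and was counted there. Microglia markers summed to 3.55 to 4.32 RPKM with 0 of 5 tested genes called (0 at an unadjusted p under 0.05, limma) and P2ry12 at 0 in 1 library of each group. Endothelial markers summed to 0.575 to 0.934 RPKM with 1 of 3 tested genes lower, Cldn5 at 0 in 1 library of each group and Tek at 0 in DcpS shRNA 2. The part of any of these cell types in the values of the 36 genes was not tested.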

How the data were processed

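The deposited table holds a signal that the authors scaled, 1 column per library. Every value was a whole multiple of its column's smallest positive value (100% within 0.001), so whole reads were recovered by division; the factors matched median-of-ratios size factors. The submitters' processing notes name HISAT2 2.2.0, SAMtools 1.3.1, Picard, featureCounts, DESeq2 and GRCm38, without roles. The gene models used for counting and the use of strand were not stated there. Such scaling holds the typical gene constant between libraries.

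Genes were kept by filterByExpr (edgeR 4.0.16, minimum count 10). The test was limma 3.58.1 on log2(normalised read count + 1), with trend and robust empirical Bayes, two-sided, group as the only term, Benjamini-Hochberg over 18110 genes; fold changes are on that scale, which understates low genes. The script was tested on simulated data. edgeR's quasi-likelihood test and DESeq2 1.42.0 ran on the recovered reads; edgeR called 1045 genes against limma's 1048. With 2 against 2, an exact permutation test of 1 gene cannot go below p = 0.333. RPKM used GENCODE M21 exon lengths (GRCm38) and positions. Depth was 17754768 to 21793685 reads, and 3 reads, the limit a count of 0 allows, are 0.138 to 0.169 CPM, for counting error only.

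The members, lists, tests and motifs were chosen with earlier results of these data known. Values per library are given for members past an adjusted or unadjusted p of 0.05, the 3 highest per length of each role, the MCM genes and the members farthest apart; of the wider lists, calls and extremes are named. Rrm1, Tyms, Cdk1, Ccnb2 and Tpx2 were chosen for such values after they were seen.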

Additional observations from a re-analysis of the deposited data

How the results depend on the processing

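Of the 36 genes, the count of calls was 1 in 8 of the 11 alternatives that kept all libraries. It was 0 with DESeq2, 2 with the replicate block and 2 with the length trend removed, and leaving out 1 library gave 0 to 1. Over all genes the 1048 calls became 453 with DESeq2, 1626 with the replicate block and 691 without genes holding a 3′ UTR word, and 594 to 1439 with 1 library left out. The cyclin and CDK median of 0.01 was 0.0081 with edgeR and 0.059 with the length trend removed, and ran from −0.0038 to 0.045 with 1 library left out; the mitosis median ran from −0.00043 to 0.070, and the replication median from 0.052 to 0.097. The causes of these shifts were not tested.

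Fitted values near 0 changed sign without passing the test. Bub1b was −0.000202 with library totals and −0.00202 with edgeR, Top2a −0.000103 with edgeR and Mki67 0.00052 with DESeq2. With the length trend removed, Cdk6 was 0.059, Ccnb1 0.00557, Cenpe 0.00721 and Mki67 0.049. With 1 library left out, the ranges that crossed 0 were −0.019 to 0.033 (Ccnd2), −0.064 to 0.045 (Ccnb1), −0.038 to 0.052 (Aurka), −0.012 to 0.064 (Mcm6), −0.019 to 0.045 (Cdk4), −0.051 to 0.073 (Plk1), −0.054 to 0.054 (Bub1b), −0.024 to 0.051 (Tpx2), −0.050 to 0.056 (Top2a), −0.13 to 0.12 (Mki67), −0.073 to 0.11 (Cenpf), −0.019 to 0.14 (Ccne2), −0.058 to 0.0035 (Bub1), −0.20 to 0.13 (Cenpe), −0.47 to 0.052 (Atm) and −0.080 to 0.0019 (Cdk7).

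The replicate numbers are shared by the groups, but nothing says that they mark a shared preparation. Deviations of same-numbered libraries had a correlation of 0.04 over 18110 genes. The replicate block called Mcm3 and Birc5 (adjusted p 0.0145, limma). With 2 libraries per group the median SE of the 36 fold changes was 0.06 on the log2 scale. In the main test Mcm3 passed at 0.20 and Birc5 at 0.24 did not, so differences of about that size and below could be missed.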
